A study of Mus musculus with 3 samples.

Results

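*Meg3*, *Rian*, *Mirg* and *Dlk1* are genes of the imprinted *Dlk1-Dio3* locus on mouse chromosome 12. They were taken by symbol, 4 of 27755 genes listed for the D10 culture and the E14.5 tail and of 25936 listed for D6 PM, and all 4 were found in each of the 3 libraries. The genes were chosen by their readout in these same libraries, so their levels and the differences between libraries are given as a description, with no test. With 1 library per group no test between groups was possible either, and cells of a library are not replicates.

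The study followed mouse embryonic stem cells through a directed differentiation and set the result beside embryonic tissue. The cells carried the ScxGFP reporter of the tendon gene *Scx*, came from blastocysts of reporter mice and were kept on irradiated embryonic fibroblast feeders with serum and LIF. Embryoid bodies were grown with the BMP inhibitor LDN-193189 and then with CHIR, an activator of WNT signalling, together with LDN-193189, which gave the day 6 paraxial mesoderm library, D6 PM. The D10 culture library was taken after further growth with TGFβ1, the hedgehog agonist SAG and FGF2. The E14.5 tail library came from tails of ScxGFP mouse embryos of both sexes on a C57BL6 background, with no such treatment. Whole cultures and tails were profiled without a sort for the reporter. The sources used here do not give the number of cultures or embryos behind a library.

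Imprinted genes are read mainly from the copy inherited from a given parent. At this locus *Dlk1*, *Rtl1* and *Dio3* are read from the paternal chromosome, and *Meg3*, *Rian* and *Mirg*, which stay as noncoding RNAs and host many microRNAs, from the maternal chromosome. Methylation of a region between *Dlk1* and *Meg3* marks the paternal copy, and in mouse pluripotent cell lines the maternal RNAs are known to be silenced in some lines or cells. *Dlk1* encodes a transmembrane protein related to Notch ligands, abundant in embryonic mesenchyme. The counts carry no allele, so "maternal RNAs" below is the name of *Meg3*, *Rian* and *Mirg* together and not a measured origin.

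Levels are CPM, the unique molecular identifiers (UMIs) of a gene per 1000000 UMIs summed over the cells of a library or cluster. The reads come from the 3′ end of each RNA, so CPM is not divided by length. Brackets give 95% intervals, exact Poisson for CPM, Clopper-Pearson for shares of cells and conditional binomial for ratios, and all cover counting error only. The cluster codes are those deposited with the cells. The D10 culture and the E14.5 tail were numbered with 1 set of codes, 1 to 14, of which code 13 occurred in the culture alone, while D6 PM has codes 1 to 6 of its own. The libraries held 7821, 2052 and 5954 cells in the order D10 culture, E14.5 tail and D6 PM, with median depths of 5622, 13512 and 8171 UMIs per cell. Shares of cells are therefore given both as counted and after each cell was thinned to 3000 UMIs, which left out 1157, 100 and 1006 shallower cells. Between 3 and 10 barcodes were shared by any pair of libraries.

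By markers, code 1 held 11 of 13 tendon markers in both libraries, and in the tail none of them was among its leading genes. Code 2 was cycling in both, and code 4 was cartilage-like, with 11 of 13 markers in culture and 13 of 13 in tail. Code 5 was muscle-like in tail (11 of 11 markers) and in culture was led by *Actc1*, *Trh*, *Tnnc1* and *Ttn*, with 7 of 11 muscle markers. Code 3 was pluripotent-like in culture. Codes 8 and 11 were endoderm-like and endothelial-like in culture, and in tail codes 8, 10, 11 and 12 were epithelium-like, neural-like, endothelial-like and erythroid-like. Code 6 held erythroid markers (10 of 10) in tail and in culture, and in culture also 8 of 10 pluripotent markers. Code 9 held markers of immune cells and fibroblasts and is left unnamed, as is the shallow code 7. In D6 PM code 2 was pluripotent-like, code 3 cycling and code 5 fibroblast-like (12 of 14 markers). D6 PM code 1 was led by *Pomc* and *Rbp4*, code 4 by *Zic1* and *Ptn*, and code 6 held endothelial and haemoglobin genes.

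The start sites of the maternal RNA *Meg3* and of *Dlk1* are shown because the results turn on how differently these neighbours behaved. Each sequence runs from 250 bases before to 50 bases after the start in the RefSeq annotation of GRCm38.p6, on the plus strand, at chr12:109540746-109541045 for *Meg3* and chr12:109452573-109452872 for *Dlk1*. Capitals mark matches to TGACGTCA or TATAAA, searched on both strands and chosen after the data had been seen.

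Meg3: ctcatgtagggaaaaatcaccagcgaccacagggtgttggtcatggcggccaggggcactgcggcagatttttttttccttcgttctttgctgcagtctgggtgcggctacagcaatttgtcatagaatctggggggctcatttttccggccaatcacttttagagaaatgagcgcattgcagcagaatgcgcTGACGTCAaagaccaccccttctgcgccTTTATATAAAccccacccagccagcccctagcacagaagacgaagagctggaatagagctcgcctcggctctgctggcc
Dlk1: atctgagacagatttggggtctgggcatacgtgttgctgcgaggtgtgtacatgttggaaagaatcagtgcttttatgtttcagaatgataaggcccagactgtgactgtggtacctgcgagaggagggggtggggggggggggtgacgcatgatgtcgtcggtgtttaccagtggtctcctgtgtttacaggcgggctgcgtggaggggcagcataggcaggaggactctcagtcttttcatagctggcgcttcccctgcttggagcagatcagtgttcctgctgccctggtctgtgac

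The *Meg3* window held 1 TGACGTCA, the letters of the cyclic AMP response element, and TATAAA on both strands in matches that overlap each other. The *Dlk1* window held neither. TGACGTCA occurred in 588 of 32841 promoter windows (1.79%) and TATAAA in 4472 (13.6%). The *Meg3* window held 13 CpG dinucleotides, the *Dlk1* window 9, the *Mirg* window 10 and the *Rian* window 0, against a median of 7.

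The maternal RNAs are also the hosts of microRNAs, of which 3 examples are shown, with 2 more that share a seed and lie between *Rian* and *Mirg*. Capitals mark the seed, bases 2 to 8, which pairs with target RNAs.

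miR-770-3p: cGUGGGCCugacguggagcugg
miR-370-3p: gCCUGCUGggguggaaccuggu
miR-379-3p: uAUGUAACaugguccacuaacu
miR-411-3p: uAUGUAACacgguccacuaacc
miR-410-3p: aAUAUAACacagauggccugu

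Of these, miR-770-3p lies within *Meg3* (chr12:109563744-109563765), miR-370-3p within *Rian* (chr12:109618305-109618326) and miR-410-3p within *Mirg* (chr12:109743764-109743784). miR-379-3p (chr12:109709102-109709123) and miR-411-3p (chr12:109710225-109710246), which lie between *Rian* and *Mirg* as annotated, have the same seed. From *Dlk1* to *Dio3* the table lists 114 mature microRNAs from 61 hairpins with 104 different seeds, 3 of them within *Meg3*, 6 within *Rian* and 26 within *Mirg*. The libraries were made from polyadenylated RNA, and levels of mature microRNAs were not measured.

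The maternal RNAs were abundant in the embryonic tail and scarce in both cultures, whereas *Dlk1* was at a similar level in the tail and the D10 culture. *Meg3*, the first of the maternal RNAs in the direction of reading, was at 2216 CPM in the E14.5 tail (2200 to 2233), 150 CPM in D6 PM (146 to 153) and 61.2 CPM in the D10 culture (59.1 to 63.3). It was counted in 78.0%, 9.51% and 4.23% of cells in that order, and in 73.4%, 8.16% and 3.84% after thinning. The gap between tail and cultures was thus also present at equal depth. *Rian*, a host of C/D box small nucleolar RNAs and microRNAs, was at 305 CPM in tail, 8.12 CPM in D6 PM and 10.9 CPM in the D10 culture. *Mirg*, which hosts the microRNA cluster nearest to *Dio3*, was at 41.1, 1.81 and 2.36 CPM.

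*Dlk1* was at 646 CPM in the tail (637 to 655), 597 CPM in the D10 culture (590 to 603) and 95.3 CPM in D6 PM (92.7 to 98.0). Its share of cells was 60.9%, 59.5% and 16.2% as counted, and 45.2%, 52.9% and 11.6% after thinning. The other paternally read genes of the locus were near the limit of detection. *Rtl1*, a gene derived from a retrotransposon, had 130 UMIs in the tail, 33 in the D10 culture and 21 in D6 PM. *Dio3*, which encodes a thyroid hormone deiodinase, had 97, 20 and 19 UMIs.

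In the tail, *Meg3* spanned a wide range of cell types. It was highest in the neural-like code 10, at 3450 CPM (3362 to 3540), and in the tendon-like code 1, at 3444 CPM (3408 to 3480), which did not differ beyond their intervals. Cartilage-like code 4 followed at 2701 CPM and cycling code 2 at 2442 CPM, and these were separated from each other and from code 1. Code 9, with immune and fibroblast markers, at 1732 CPM and muscle-like code 5 at 1626 CPM overlapped in their intervals. The blood, epithelial and endothelial codes were far lower. Codes 6, 8 and 7 lay between 238 and 277 CPM with overlapping intervals, endothelial-like code 11 was at 104 CPM, and erythroid-like code 12 was at 9.42 CPM (4.52 to 17.3).

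Erythroid-like code 12 also served as a measure of free RNA, on the assumption that these cells lack the gene. *Meg3* was counted in 7.81% of its cells, at a median depth of 8391.5 UMIs, against 96.9% in code 1 at a median of 13463. After thinning these shares were 4% and 93.2%. Tail code 6 held 10 of 10 erythroid markers, against 8 of 10 in code 12. *Meg3* was at 277 CPM there, in 28.2% of cells, or 14.7% after thinning. Code 12 was thus the lower of these blood codes, and the source of the difference was not tested. *Dlk1* was counted in 6.25% of the cells of code 12 and 82.8% of those of code 1, or 2.4% and 66.4% after thinning.

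**Figure D1:**
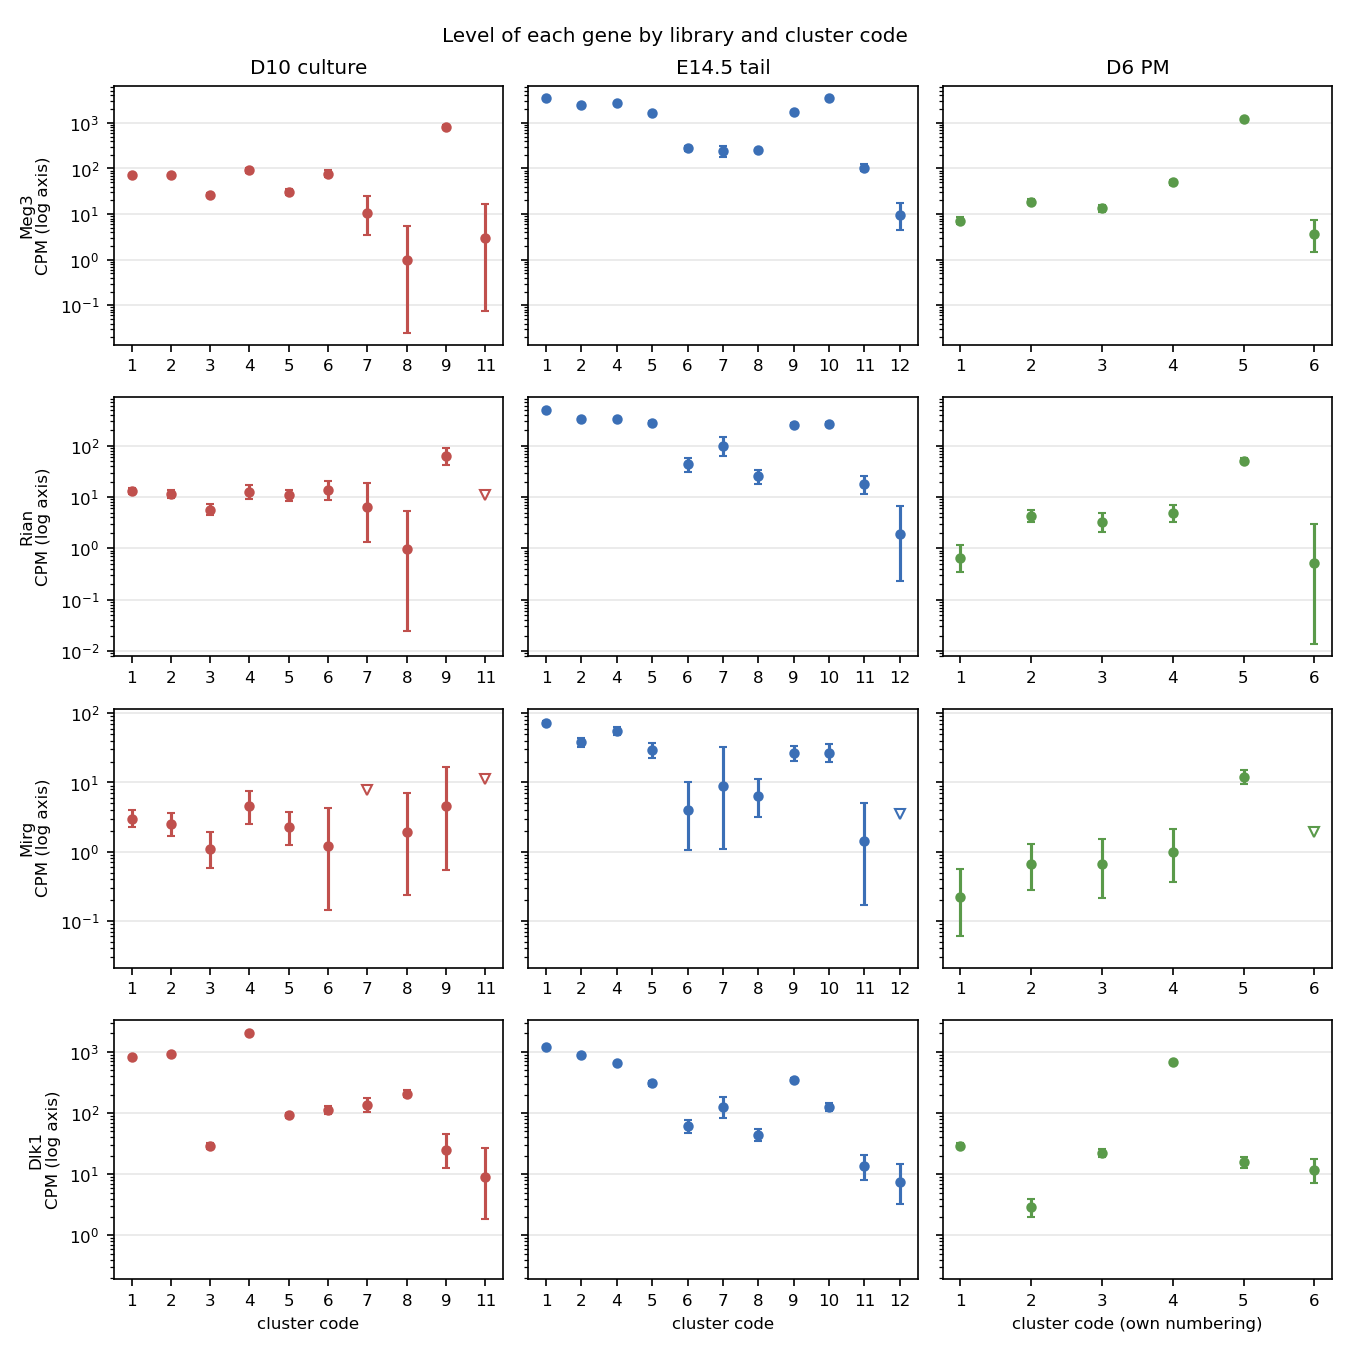
Level of each of the 4 genes (CPM, log axis) by cluster code in each of the 3 libraries, with 95% intervals of counting error. Open triangles are upper limits for codes with 0 UMIs. *Meg3* lies above 1600 CPM in tail codes 1, 2, 4, 5, 9 and 10, and below 100 CPM in the culture in every plotted code but code 9.

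*Rian* and *Mirg* followed *Meg3* across tail codes but in different proportion. *Rian* was highest in tendon-like code 1, at 503 CPM, and *Mirg* likewise, at 72.9 CPM. In neural-like code 10, where *Meg3* was as high as in code 1, *Rian* was at 266 CPM and *Mirg* at 26.7 CPM. Per *Meg3* UMI there were 0.146 *Rian* UMIs in code 1 (0.142 to 0.151) and 0.0771 in code 10 (0.0699 to 0.0849). Over whole libraries this ratio was 0.138 in tail, 0.177 in the D10 culture (0.162 to 0.194) and 0.0543 in D6 PM (0.0491 to 0.0599). Among codes of the D10 culture with at least 100 *Meg3* UMIs it was highest in code 5, at 0.353, and lowest in code 9, at 0.0778.

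In the D10 culture *Meg3* was below 100 CPM in every described code but code 9. Cartilage-like code 4 was at 91.4 CPM (81.4 to 102), haemoglobin-led code 6 at 77.0 CPM (64.3 to 91.5), cycling code 2 at 71.8 CPM (66.8 to 77.1) and tendon-like code 1 at 71.6 CPM (67.6 to 75.8). Each overlapped the next in this order. Code 4 was above codes 1 and 2 beyond the counting intervals, which do not cover the spread between cells. Its 304 UMIs came from 29 cells. The share of cells with *Meg3* was lower in code 4, at 3.39%, than in code 1 at 4.22% and code 2 at 4.07%. Codes 5 and 3 followed at 30.5 and 26.2 CPM. The share of cells with a *Meg3* UMI lay between 3.39% and 5.06% in these 6 codes. In endoderm-like code 8 it was 0.645%, from 1 UMI in 155 cells at a median depth of 6129 UMIs, and in code 13, with endoderm markers, no UMI was found among 43 cells, where 3 UMIs would have been 7.29 CPM. Shallow code 7 was at 10.6 CPM, from 5 UMIs. Free RNA in the culture was not measured, and no limit on it is drawn from these values.

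Code 9 of the culture, 53 cells led by *Lyz2* and *Mmp3*, stood apart. *Meg3* was at 820 CPM there (738 to 909) and *Rian* at 63.8 CPM, while *Dlk1* was at 25.1 CPM. These cells held 0.822% of the UMIs of the library and 11.0% of those of *Meg3*.

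In D6 PM the maternal RNAs came mostly from fibroblast-like code 5. It held 11.4% of all UMIs but 90.1% of those of *Meg3*, 71.3% of *Rian* and 75.5% of *Mirg*. *Meg3* was at 1185 CPM in code 5 (1158 to 1213) and counted in 62.1% of its cells. Code 4 followed at 49.7 CPM, pluripotent-like code 2 at 18.8 CPM and cycling code 3 at 13.4 CPM, each separated from the next. Codes 1 and 6 were at 7.10 and 3.69 CPM and overlapped. The stem cells had been kept on fibroblast feeders, and the origin of the cells of code 5 was not tested.

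*Dlk1* was spread over other codes. In the D10 culture it was highest in cartilage-like code 4, at 2062 CPM (2013 to 2111) and in 93.7% of cells, then in cycling code 2 at 916 CPM and tendon-like code 1 at 830 CPM, with no overlap among them. Endoderm-like code 8 was at 207 CPM, codes 7, 6 and 5 lay between 91.6 and 136 CPM, and pluripotent-like code 3 was at 28.7 CPM. In the tail the order was different, with 1209 CPM in code 1 (1188 to 1231), 877 CPM in code 2 and 662 CPM in code 4. Code 9 at 350 CPM and muscle-like code 5 at 305 CPM overlapped, and neural-like code 10 was at 126 CPM. In D6 PM, *Dlk1* was concentrated in code 4, which held 82.8% of its UMIs at 673 CPM (653 to 694) in 73.9% of cells. The other codes of D6 PM lay between 2.87 and 29.3 CPM, and fibroblast-like code 5 was at 15.6 CPM.

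The proportion of maternal RNAs to *Dlk1* therefore changed by more than an order of magnitude between libraries. For each *Dlk1* UMI there were 3.97 UMIs of the maternal RNAs in the tail (3.91 to 4.03), 1.67 in D6 PM (1.62 to 1.73) and 0.125 in the D10 culture (0.121 to 0.129). The D6 PM value rests largely on code 5, with 7362 of the 8275 maternal UMIs and 92 of the 4944 *Dlk1* UMIs of that library. Without code 5, D6 PM had 913 maternal and 4852 *Dlk1* UMIs. The D10 culture without code 9 had 3584 and 31865. Without the 1% of cells with most UMIs of the gene, the D10 culture value was lower still, as given under processing. Within code 1 the ratio was 3.33 in tail and 0.106 in culture, within code 2 it was 3.21 and 0.0936, and within code 4 it was 4.67 and 0.0526. Neural-like code 10 of the tail had the highest ratio of the tail, 29.6. In the cultures the ratio was highest, among codes of at least 50 cells, in code 9 of the D10 culture at 35.5 and in code 5 of D6 PM at 80.0. In D6 PM code 4, which carried most *Dlk1*, it was 0.0826.

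Culture and tail were set side by side within shared cluster codes. A shared code did not always hold cells of like markers, and codes 1, 2 and 4 had the same names in both libraries. A gene was tested when it was detected in at least 10% of cells of either library, and called when its CPM differed at least 2-fold, with a count of 0 set to 3. This is a rule of size and not a statistical test. In tendon-like code 1, *Meg3* was at 71.6 CPM in culture and 3444 CPM in tail, 48.1-fold higher in tail (45.4 to 51.0). *Rian* was 37.8-fold higher in tail (33.0 to 43.4) and *Mirg* 24.2-fold (18.2 to 32.9). *Dlk1* was at 830 and 1209 CPM, a culture to tail ratio of 0.687 (0.670 to 0.704), short of the 2-fold limit. In this code 13.6% of the 10418 genes tested were called higher in tail, and 3 of the 4 genes were among them. Since they were chosen for this difference, nothing is read from that count.

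Cycling code 2 gave a like picture. *Meg3* was 34.0-fold higher in tail, *Rian* 29.0-fold and *Mirg* 15.0-fold, while *Dlk1* was at 916 CPM in culture and 877 CPM in tail, a ratio of 1.04 (1.01 to 1.08). Here 13.6% of 11232 genes were called higher in tail.

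In cartilage-like code 4 the maternal RNAs and *Dlk1* moved in opposite directions. *Meg3* was 29.5-fold higher in tail (26.4 to 33.2), *Rian* 26.3-fold and *Mirg* 12.3-fold, and *Dlk1* was 3.12-fold higher in culture (2.97 to 3.27). Of 9986 genes 17.9% were called in either direction. The summed maternal RNAs in codes 1, 2 and 4 were at 87.9, 85.8 and 109 CPM in culture and 4020, 2813 and 3089 CPM in tail. Without the 1% of cells with most UMIs of the gene, this gap was wider in each of these codes, as given under processing. In code 5, where all 4 genes were called higher in tail and 20.5% of 10908 genes were, *Meg3* was 53.3-fold, *Rian* 25.9-fold and *Dlk1* 3.33-fold higher in tail, and *Mirg* was at 29.1 CPM in tail and 2.25 CPM in culture. The markers of code 5 differed between the libraries, as given above.

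**Figure D2:**
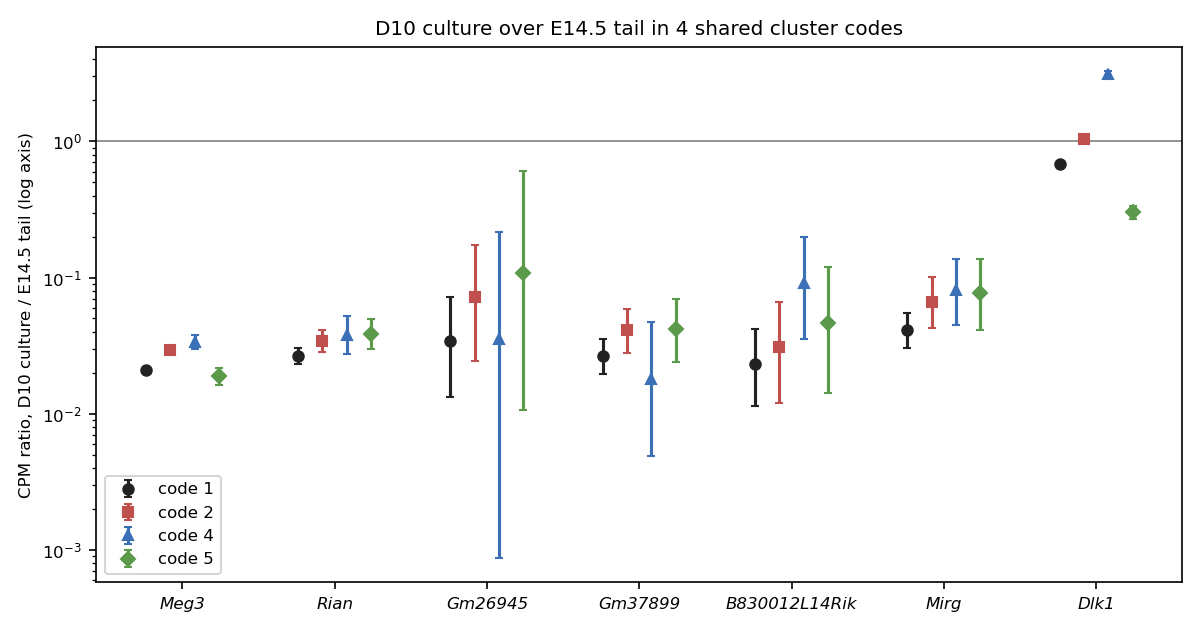
D10 culture over E14.5 tail (ratio of CPM, log axis) in shared codes, with 95% intervals of counting error. The 4 genes are shown with Gm26945, Gm37899 and B830012L14Rik, other transcripts of the locus. A code without culture UMIs of a gene has no point. *Meg3*, *Rian* and *Mirg* lie far below equality in codes 1, 2, 4 and 5, while *Dlk1* is at 0.687, 1.04 and 3.12 in codes 1, 2 and 4.

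Other transcripts between *Meg3* and *Mirg* followed the maternal RNAs. In code 1, Gm37899 was 37.5-fold, B830012L14Rik 43.5-fold and Gm26945 29.5-fold higher in tail. These annotations lie along the same transcribed stretch, and reads of overlapping transcripts may be divided among them. *Rtl1* had 4 UMIs in culture and 96 in tail in code 1, which is 39.3-fold higher in tail (14.9 to 147), but was detected in too few cells to be tested. *Dio3* had 4 and 62 UMIs. In code 4 both genes had fewer than 10 UMIs in either library.

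Genes flanking the locus were rarely called in codes 1, 2 and 4, and other imprinted genes were called in part. For comparison, 19.4% of all genes tested were called in either direction in code 1, 19.1% in code 2, 17.9% in code 4 and 33.8% in code 5. Of 11 flanking genes of chromosome 12, 9 were tested in code 1 and 1 was called, *Slc25a29*, a mitochondrial carrier, 2.76-fold higher in tail. None of 9 tested in code 2 and none of 7 tested in code 4 was called. In code 5, 3 of 8 were called, *Hsp90aa1* higher and *Slc25a29* and *Evl* lower in culture. Among 40 other imprinted genes 33 were tested in code 1, where 3 were called higher in culture, *Zim1*, *Peg3* and *Usp29*, and 6 lower, with *Kcnq1ot1*, a noncoding RNA, and *Ndn* the furthest apart. Their median log2 ratio was -0.20, beside -0.21 over all genes tested. In code 2, 4 of 33 tested were called higher in culture and 7 lower, in code 4, 4 of 34 and 7, and in code 5, 2 of 35 and 21. *Kcnq1ot1* was lower in culture in all 4 codes. Of 19 regulators of the imprint, such as DNA methyltransferases, 16 were tested in code 1 and in code 4 and none was called. In code 2, 2 of 17 were called, *Tet2* higher and *Dnmt3b* lower in culture, and in code 5, 5 of 17, with *Dnmt3b* 91.2-fold higher and *Tet2* and *Tet3* lower in culture. In the Notch list 6 of 18 genes were tested in code 1, with *Notch1* higher and *Dner* and *Notch2* lower in culture. In code 2, 1 of 5 was called lower, in code 4, 2 of 4 higher, and in code 5, 11 of 14 lower.

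From D6 PM to the D10 culture *Dlk1* rose, while the direction for the maternal RNAs depended on code 5 of D6 PM. *Dlk1* was at 95.3 CPM in D6 PM and 597 CPM in the D10 culture, 6.26-fold higher (6.08 to 6.45), and was called, as were 7.79% of 8845 genes higher in the D10 culture and 5.86% higher in D6 PM. Over whole libraries the maternal RNAs were at 0.466 of their D6 PM level (0.449 to 0.484). *Meg3* fell short of the detection rule in both libraries. *Rian* was at a ratio of 1.34 (1.18 to 1.52) and *Mirg* at 1.30 (0.989 to 1.72). The summed maternal RNAs were at 74.4 CPM in the D10 culture and 160 CPM in D6 PM, or 19.9 CPM in D6 PM without code 5. Without it and code 9 of the D10 culture, a choice made after the data had been seen, the maternal RNAs were at 67.7 CPM in the D10 culture, 3.41-fold higher than in D6 PM (3.17 to 3.67), and *Dlk1* was 5.70-fold higher.

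Among the other imprinted genes 32 were tested between these libraries. 11 were called higher in the D10 culture, with *Igf2*, a fetal growth factor, 19.3-fold and *Zim1* 15.1-fold higher. *Asb4*, *Peg10* and *Ppp1r9a* were called lower. Of 19 regulators tested, *Aff3*, *Dnmt3b* and *Dnmt3a* were called higher in the D10 culture and *Dppa3*, a protein that protects imprints in the early embryo, lower. None of 7 flanking genes tested was called.

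In culture codes 1 to 6 most cells had no maternal UMI, more than a Poisson count of the same mean would leave. After thinning, 2471 of 2595 cells of culture code 1 (95.2%) had no maternal UMI, where a Poisson count of the same mean, 0.262 UMIs, would leave 76.9% without any. Of the rest, 33 cells had 1 UMI, 36 had 2 to 4 and 55 had 5 or more. In tail code 1, 38 of 678 cells (5.60%) had none, where a Poisson count would leave 0.0009%, and 509 had 5 or more. In D6 PM code 5, 145 of 472 cells (30.7%) had none, against 2.14%, and 150 had 5 or more. The excess over a Poisson count was thus not particular to the D10 culture. Among the detecting cells of the culture the counts varied by code. In pluripotent-like code 3, 1038 of 1081 cells had none, 16 had 1, 23 had 2 to 4 and 4 had 5 or more, and in code 9, 19 of 36 cells had none. Leaving out the 1% of cells with most *Meg3* UMIs brought *Meg3* in culture code 1 from 71.6 to 34.5 CPM.

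**Figure D3:**
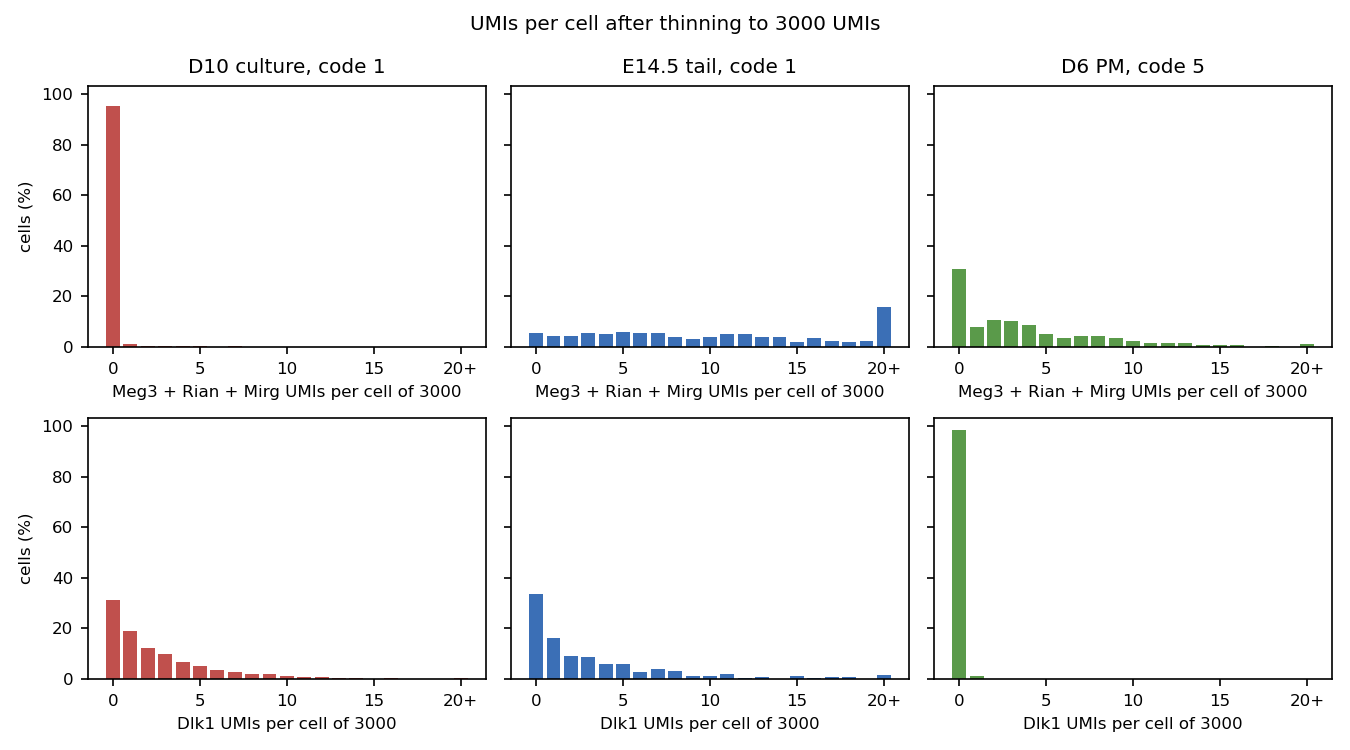
Share of cells (%) by UMIs per cell after thinning to 3000 UMIs, for the maternal RNAs summed (top) and *Dlk1* (bottom), in culture code 1, tail code 1 and D6 PM code 5. In culture 95.2% of cells have no maternal UMI, while *Dlk1* falls off gradually in both codes 1.

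In each library most cells with *Rian* also had *Meg3*. Of thinned cells with *Meg3*, 851 of 1432 had *Rian* in the tail, 124 of 256 in the D10 culture and 85 of 404 in D6 PM. In culture code 1, 102 thinned cells had *Meg3*, 67 had *Rian* and 59 had both, 22.4 times the number that independent shares would give (17.1 to 28.8). In tail code 1 *Meg3* and *Rian* met in 424 of 678 cells, 1.06 times that number (0.994 to 1.12), as *Meg3* was in nearly every cell. In D6 PM code 2 the ratio was 22.2, from 9 cells with both. Over D6 PM 404 thinned cells had *Meg3*, 95 had *Rian* and 85 had both. In D6 PM code 5 these numbers were 322, 70 and 65, a ratio of 1.36. *Mirg* was found in fewer cells. In culture code 1, 6 of the 21 cells with *Mirg* had *Meg3* and 6 had *Rian*, 7.27 and 11.1 times the independent number, while 88.1% of the cells with *Rian* had *Meg3*. In culture code 2, 5 of 9 cells with *Mirg* had *Meg3*, in code 3 all 4, and in code 4, 5 of 7. Over the D10 culture the share was 46.8%, beside 84.4% of the cells with *Rian*. Over D6 PM it was 86.4%, beside 89.5% of the cells with *Rian*. Cells of culture code 1 with a *Rian* or *Mirg* UMI had *Meg3* at 1207 CPM against 11.8 CPM in cells without. This 102-fold difference (87.4 to 120) compares with 5.66-fold in tail code 1, at 3636 and 642 CPM.

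*Meg3* and *Dlk1* met less often than independent shares would give in culture code 1, where 46 cells had both (1.77%, 1.30 to 2.36) and independence would give 2.70%, a ratio of 0.657. In codes 2 and 4 the ratios were 0.717 and 0.810, from 25 and 19 cells, and the intervals of the shares included independence. In codes 3, 5 and 6, where *Dlk1* was low, the ratios were 1.65, 1.93 and 2.16, from 2 or 3 cells with both. In tail code 1 the ratio was 1.04.

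To describe the cells that carried the maternal RNAs, a cell with at least 2 maternal UMIs was called positive and a cell with none negative. This division, and what follows from it, was chosen after the data had been seen. In the D10 culture 291 of 7821 cells (3.72%) were positive, and they held 96.8% of the maternal UMIs. Positive cells made up 3.78% of code 1, 3.62% of code 2, 4.60% of code 3, 2.92% of code 4, 3.78% of code 5 and 2.99% of code 6, all with overlapping intervals. None of 155 cells of code 8 (0 to 2.35%) and 20 of 53 cells of code 9 (37.7%) were positive, the latter with a median depth of 13529 UMIs against 3821 in its negative cells.

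In the tail 1538 of 2052 cells (75.0%) were positive, with 96.9% in code 1, 100% in code 2, 98.8% in code 4 and 0.781% in erythroid-like code 12. In D6 PM 453 of 5954 cells (7.61%) were positive, 375 of them in code 5. Outside it the shares were 3.76% in pluripotent-like code 2, 1.86% in code 4, 1.34% in code 3 and 0.551% in code 1. Within positive cells of code 1 the maternal RNAs reached 1902 CPM in culture and 4084 CPM in tail. Their median depths were 5308.5 and 13544 UMIs, and a threshold of 2 UMIs takes in weaker cells where depth is greater.

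*Dlk1* was lower in positive than in negative cells of culture codes 1, 2 and 4, by an amount that depended on how positive cells were set. In code 1 it was at 309 CPM in 112 positive cells (270 to 352) and 849 CPM in 2796 negative cells (835 to 864), a ratio of 0.364 (0.318 to 0.415). After thinning *Dlk1* was found in 41.7% of positive and 69.4% of negative cells. In code 2 it was at 491 and 922 CPM, a ratio of 0.533 (0.461 to 0.613), and in code 4 at 1165 and 2108 CPM, a ratio of 0.553 (0.465 to 0.653). The 3 ratios had intervals below equality. With any maternal UMI as the mark of a positive cell they were 0.647, 0.883 and 0.655 in codes 1, 2 and 4, and with any *Rian* or *Mirg* UMI 0.662, 0.848 and 0.667, again with intervals below equality.

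In the remaining culture codes compared, where *Dlk1* was low, it was not lower in positive cells beyond the intervals. In code 3 it was at 18.0 and 29.4 CPM, a ratio of 0.612 (0.313 to 1.08), and in code 5 at 107 and 88.1 CPM. In code 9 it was at 15.3 and 40.4 CPM, from 4 and 7 UMIs, a ratio of 0.379 (0.0814 to 1.49). These intervals all include equality. In code 6 *Dlk1* was at 229 and 98.5 CPM, 2.32-fold higher in 13 positive cells (1.27 to 3.95), of which 3 were called doublets. Median depths of positive and negative cells were 5308.5 and 4902.5 UMIs in code 1, 7646 and 7328 in code 2, and 4626 and 3657 in code 4.

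Cells with exactly 1 maternal UMI differed in direction from the positive cells in codes 1 and 2 and not in codes 3 to 6. In code 1 the 56 such cells had *Dlk1* at 1093 CPM, 1.29-fold above the negative cells (1.16 to 1.43), and in code 2 the 20 such cells had 1663 CPM, 1.80-fold above. In code 4 the 18 such cells were at 0.793 of the negative cells (0.671 to 0.932), and in code 3 the 11 such cells at 0.656 (0.0791 to 2.39). In code 5 the 3 such cells were 5.06-fold (3.14 to 7.73) and in code 6 the 10 such cells 5.14-fold (2.97 to 8.40) above the negative cells.

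Tail code 1 and D6 PM codes 4 and 5 did not have lower *Dlk1* in positive cells beyond the intervals. In tail code 1 it was at 1226 CPM in 664 positive cells and 144 CPM in 17 negative cells, 8.51-fold higher in positive cells (5.38 to 14.4), where the negative cells gave 18 UMIs in all. Median depths of these cells were 13544 and 8274 UMIs. In tail codes 5, 9 and 11 *Dlk1* was also higher in positive cells, 91.3-fold, 11.5-fold and 4.96-fold. Negative cells of these codes gave 1, 14 and 4 *Dlk1* UMIs, and those of tail codes 6 and 8 gave 0. In D6 PM code 4 it was at 636 CPM in 13 positive and 670 CPM in 672 negative cells, a ratio of 0.951 (0.781 to 1.15). In D6 PM code 5, which held most positive cells, it was low in both, at 19.4 CPM in 375 positive cells (15.6 to 24.0) and 5.06 CPM in 246 negative cells (1.86 to 11.0), 3.85-fold higher in the positive cells (1.70 to 10.8). Their median depths were 11554 and 1936.5 UMIs. After thinning *Dlk1* was found in 1.71% of positive and 2.11% of negative cells, and 1 cell held 26 of the 92 *Dlk1* UMIs of the code. D6 PM codes 1, 2 and 3 had 3 or fewer *Dlk1* UMIs in their positive cells.

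**Figure D4:**
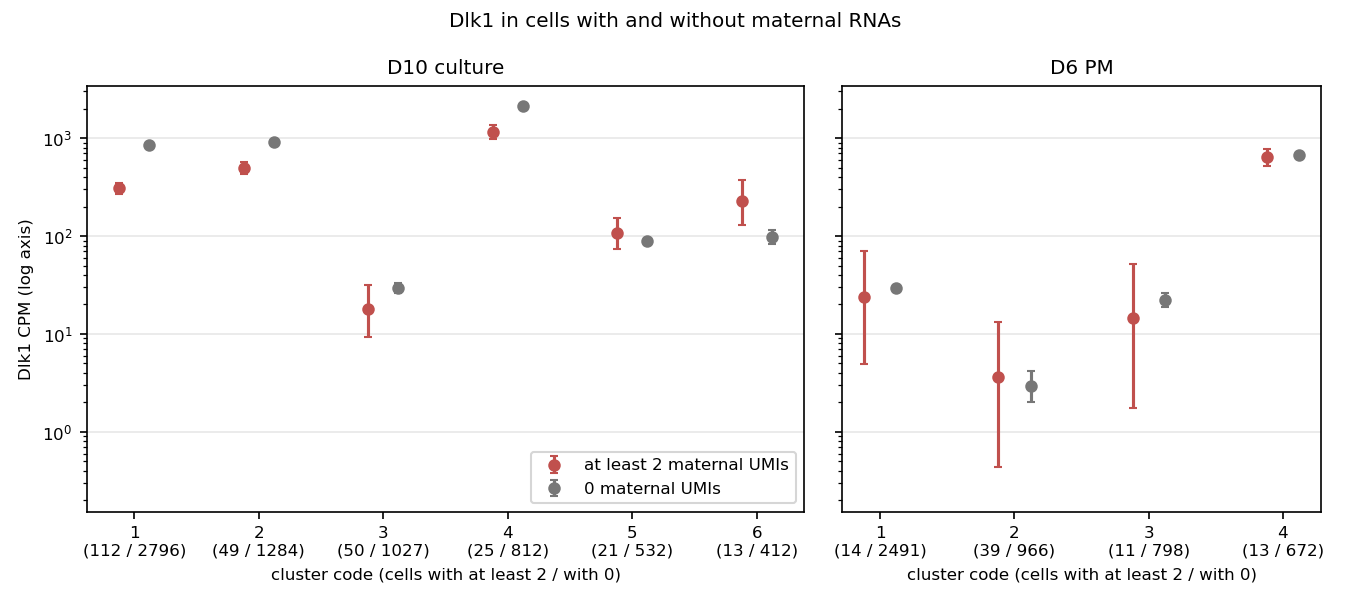
*Dlk1* level (CPM, log axis) in cells with at least 2 and with 0 maternal UMIs, by cluster code in the D10 culture and D6 PM, with 95% intervals of counting error and cell numbers under each code. Positive cells lie below negative cells in culture codes 1, 2 and 4, at 309 against 849 CPM in code 1, and overlap them in D6 PM codes 1 to 4. D6 PM code 5 is not plotted.

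To extend this to other genes, the UMIs in positive cells were compared with those expected from negative cells of the same codes at the same depth, over culture codes 1 to 6 (270 positive and 6863 negative cells) and D6 PM codes 1 to 4 (77 and 4927). The genes called at 2-fold were few in the culture, 14 higher (0.163% of 8569 tested) and 9 lower (0.105%). In D6 PM 140 were higher (1.44% of 9726) and 56 lower (0.576%). The cells were divided by the maternal RNAs, so the 3 RNAs themselves are left out of these counts. Gm37899 and B830012L14Rik, of the same transcribed stretch, are still counted among the higher genes of both libraries.

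*Dlk1* was 1 of the 9 lower genes in the culture, with 628 UMIs against 1309 expected, a ratio of 0.480 (0.443 to 0.519). The call at 2-fold was lost when positive cells were set by any maternal UMI, at 0.743, or by *Rian* and *Mirg* alone, at 0.751. In D6 PM it had 119 UMIs against 126, a ratio of 0.943 (0.781 to 1.13). Of 32 other imprinted genes tested in the culture, 4 were among the lower genes. *Zim1*, a zinc finger gene, was at 0.237 (0.165 to 0.330), *Grb10*, an adaptor that restrains growth signalling, at 0.315 (0.278 to 0.355), *Cdkn1c*, a cell cycle inhibitor, at 0.412 (0.386 to 0.440) and *Igf2r*, the receptor that clears IGF2, at 0.467 (0.408 to 0.533). The rest of the lower genes were *Krt18*, an epithelial keratin and marker, *Eln*, *Tnfrsf21* and *Map3k5*.

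Of the genes called higher in the culture, Gm37899 (113 UMIs against 0.127 expected) and B830012L14Rik (33 against 0.0609) lie in the locus beside the maternal RNAs. The X-linked 1700013H16Rik was at 4.69 (4.13 to 5.30). 2 of the 14 are imprinted genes of other loci. *H19*, a maternally read noncoding RNA of growing mesoderm and endoderm, had 4460 UMIs against 2028 expected, a ratio of 2.20 (2.14 to 2.27), and *Peg10* had a ratio of 2.09 (1.81 to 2.41). *Peg3* was at 1.55 (1.51 to 1.59) and *Igf2* at 0.619 (0.522 to 0.729), both short of 2-fold.

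By code, *Grb10* was at 0.254 in code 1, 0.325 in code 2, 0.455 in code 3, 0.310 in code 4 and 0.509 in code 5, each with an interval below equality, and at 0.858 in code 6 (0.424 to 1.56). The other lower imprinted genes were less even. *Cdkn1c* was at 1.04 in code 3 (0.811 to 1.32) and between 0.317 and 0.560 elsewhere. *Igf2r* was at 0.390, 0.382 and 0.359 in codes 1, 2 and 4 and at 0.990, 1.13 and 0.950 in codes 3, 5 and 6, with intervals that include equality. *Zim1* was at 0.256, 0.112 and 0.190 in codes 1, 2 and 4 and at 4.37 in code 6 (1.09 to 12.9), from 4 UMIs. *H19* was at 2.40, 1.93, 3.15 and 2.19 in codes 1 to 4 and at 0.441 in code 5.

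In D6 PM *Grb10* had 76 UMIs against 280 expected, a ratio of 0.271 (0.213 to 0.339), and *Peg10* was at 2.33 (2.03 to 2.67). Neither held in every code. *Grb10* was at 0.935 (0.594 to 1.41) in code 2, with 39 of the 77 positive cells, at 0.425 and 0.171 in codes 3 and 4 and at 0 UMIs in positive cells of code 1. *Peg10* was at 1.68, 3.27 and 2.09 in codes 1 to 3 and at 0.949 in code 4 (0.430 to 1.83). *H19* was not higher there, at 0.662 (0.530 to 0.816). Of the 14 genes higher in the culture, 10 were tested in D6 PM and 7 were called the same way, which is 7 of the 140 higher genes of D6 PM. The 7 include Gm37899 and B830012L14Rik, whose calls follow in part from dividing the cells by the maternal RNAs. Nothing is read from the calls of these transcripts. Of the 9 lower genes 6 were tested in D6 PM, all with a ratio below 1, and *Grb10* was called. It is 1 of the 56 lower genes of D6 PM.

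**Figure D5:**
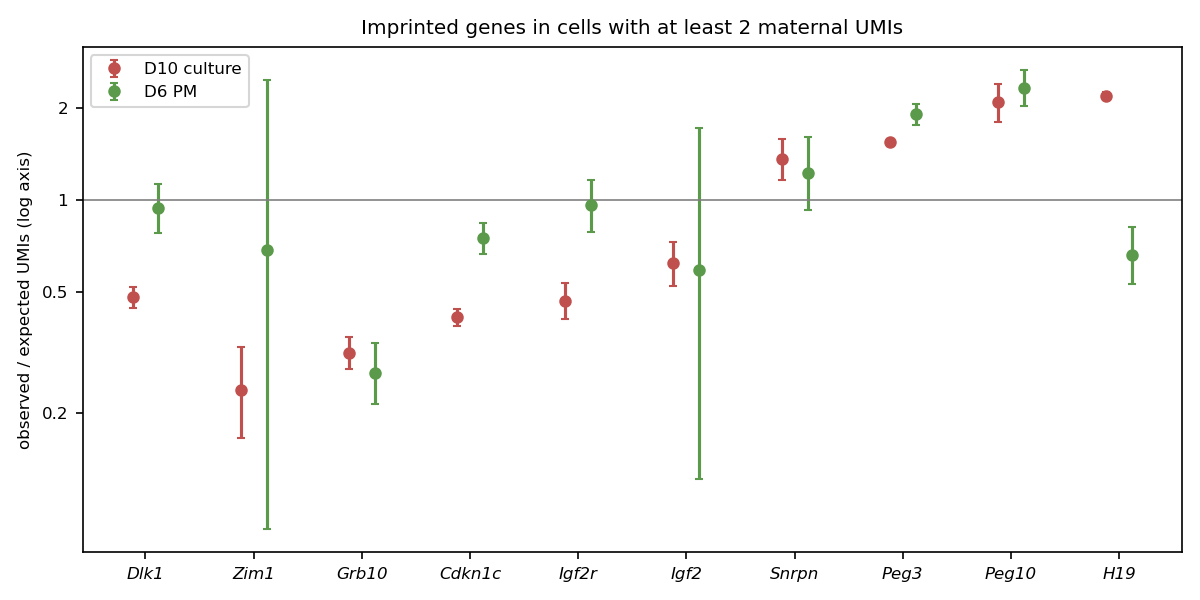
UMIs in positive cells over those expected from negative cells of the same codes (ratio, log axis) for *Dlk1* and 9 other imprinted genes, in the D10 culture and D6 PM, with 95% intervals of counting error. *Grb10* lies at 0.315 and 0.271 and *Peg10* at 2.09 and 2.33, while *Dlk1* lies below equality in the culture at 0.480 and includes it in D6 PM.

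No gene of the tendon, cartilage, pluripotent and fibroblast marker lists was called between positive and negative culture cells. Over all 8569 genes tested only 0.163% were called higher and 0.105% lower, so nothing is read from that count. The median log2 ratio was 0.04 over 11 tendon markers tested, 0.35 over 8 cartilage, -0.07 over 9 pluripotent and 0.02 over 10 fibroblast markers, beside 0.00 over all genes. *Scx* was at 1.04 and the ScxGFP reporter at 0.892. No immune or erythroid marker was detected widely enough to be tested. None of 19 regulators, 7 flanking genes and 5 Notch genes tested was called. At the shares over all genes, lists of this size would hold few or no calls, so nothing is read from this either. Of 298 X-linked genes tested in the culture 2 (0.671%) were called higher in positive cells and 0 lower. Of 8271 genes of other chromosomes 12 (0.145%) were called higher and 9 lower. The median log2 ratio was 0.17 over X-linked genes beside -0.00058 over genes of other chromosomes. In D6 PM 22 of 364 X-linked genes (6.04%) were called higher and 0 lower, and of 9362 other genes 118 (1.26%) higher and 56 lower. The medians were 0.27 and 0.02, and *Xist*, the RNA that silences an X chromosome, was at 3.33 (2.74 to 4.01). By code of D6 PM, *Xist* was at 3.86 in code 2 and 9.87 in code 4, at 1.13 in code 1 (0.306 to 2.90), and at 0 UMIs in positive cells of code 3, with an upper limit of 0.513. In the culture *Xist* was in too few cells to be tested and was at 3.47 (2.82 to 4.22), with intervals above equality in codes 1, 3, 5 and 6. Its part in the other differences was not tested. In D6 PM 1 of 3 cartilage markers tested, *Col9a3*, and the 1 immune marker tested, *Laptm5*, were called higher in positive cells, at 2.88 and 2.33. Of 10 pluripotency markers tested 1 was called, *Utf1*, lower at 0.475. None of 4 tendon and 4 fibroblast markers tested was called. Over all genes tested 1.44% were called higher and 0.576% lower. *Laptm5* was also at least 2-fold higher in each of pluripotent-like code 2, fibroblast-like code 5 and code 6 than in the rest of D6 PM. Doublets were called in 7 of the 270 positive culture cells and in 1.49% of negative cells, and in D6 PM in 5 of 77 positive cells and 1.26% of negative cells. The part of doublets in these differences was not tested beyond *Dlk1*, which was at 0.471 in the culture and 1.05 in D6 PM without them.

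Across 27 sums of cells by library and code, over log2 levels of 15109 genes, the genes with a pattern most like that of *Meg3* were *Rian* (Pearson r of 0.97), Gm37899 (0.95), *Mirg* (0.92) and the homeobox genes *Hoxc9* and *Hoxc10* (0.90 each). Those most like *Dlk1* were *Pcdh18*, a protocadherin, and *Sertad4* (0.89 each), then *Mfap4*, *Zfhx4* and *Mmp16* (0.88 each). Of the 5 genes most like *Dlk1*, 1 stayed among the first 5 with sums of at least 100 cells and 2 with Spearman's rho, and of the 5 most like *Meg3*, 3 stayed in each. *Meg3* and *Dlk1* had an r of 0.44. The sums of a library share its depth and preparation, so these values describe the pattern and are not tested.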

How the data were processed

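Whole D10 culture, E14.5 tail and D6 PM were profiled with 10x 3′ v3 chemistry, 1 library each. The deposited tables hold UMI counts per gene and cell with a cluster code, made by the authors with Cell Ranger and Seurat 3.0 (per the labels and the study's methods). The authors ignored reads that map to several places and removed cells by mitochondrial share and by depth. The genome build of these counts was not given in the sources used here. UMIs were summed by library and code and expressed as CPM, with no filter but codes of at least 50 cells for comparisons. The median depths of 5622, 13512 and 8171 UMIs per cell set the precision. Doublets were called with Scrublet in Scanpy 1.11.5 (116, 9 and 81 cells) and kept. Python 3.11.15, NumPy 2.4.6, SciPy 1.17.1 and Matplotlib 3.10.9 were used, with scripts tested on simulated data. The 4 genes, gene lists and marker lists were chosen with earlier results of these data known. Genes named are the 4 genes, the locus and its flanks, the 5 most alike in pattern, up to 4 examples per list with the largest ratios and, chosen after the data had been seen, genes called in positive cells. Alternatives covered doublets, detected genes, the top 1% of cells, per-cell means, totals, scaling, call rules and thinning depth.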

Additional observations from a re-analysis of the deposited data

Results flagged for a closer look

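The culture to tail ratio of *Dlk1* was 3.12 in cartilage-like code 4 and 0.687 in code 1, on opposite sides of equality. The ratio of *Dlk1* in cells with at least 2 maternal UMIs to cells with none was 0.364 in code 1 of the D10 culture and 8.51 in code 1 of the E14.5 tail, the latter resting on 18 UMIs in 17 negative cells. With 1 library per group neither difference between codes or libraries was tested.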

How the results depend on the processing

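No paired analysis was possible because each group is 1 library. Among the comparisons of libraries and codes, 1 turned to the other side of equality. Without code 9 of the D10 culture and code 5 of D6 PM, chosen after the data had been seen, the D10 to D6 PM ratio of the maternal RNAs was 3.41 in place of 0.466, and that of *Dlk1* was 5.70. Without the 1% of cells with most UMIs of the gene, the culture to tail ratio of the maternal RNAs was 0.0114, 0.0149 and 0.0142 in codes 1, 2 and 4, and that of *Dlk1* in code 1 was 0.705. The D10 to D6 PM ratio was then 0.352 for the maternal RNAs and 8.45 for *Dlk1*, and maternal UMIs per *Dlk1* UMI were 0.0623 in the D10 culture, 4.28 in tail and 1.49 in D6 PM. With the mean of per-cell CPM, the maternal ratio was 0.0246 and 0.0365 in codes 1 and 2, that of *Dlk1* was 0.855, 1.18 and 3.59 in codes 1, 2 and 4, and the D10 to D6 PM ratios were 0.653 and 8.30. Relative to the median ratio of all genes, the maternal ratio was 0.0252, 0.0346 and 0.0397 and that of *Dlk1* 0.792, 1.18 and 3.52 in codes 1, 2 and 4. Without mitochondrial, haemoglobin and ribosomal protein genes in the total, *Dlk1* was at 0.670 in code 1 and 5.97 from D6 PM to D10, and the maternal RNAs at 0.444. *Meg3* alone per *Dlk1* UMI gave 0.103, 3.43 and 1.57. With 10 UMIs as the only filter, 4216, 2916 and 2558 genes were called higher in tail in codes 1, 2 and 4, against 1420, 1525 and 1300. In culture, with positive cells set by any maternal UMI or by *Rian* and *Mirg* alone, both chosen after the data had been seen, *Dlk1* was at 0.743 and 0.751 of its expected level, against 0.480, so that the 2-fold call was lost. The causes were not tested. Of 302 alternative values of levels and shares, 143 stayed within the counting interval and 45 moved by over 1.5-fold, 21 of these without the top cells.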
